A study of Bos grunniens and Bos grunniens x Bos taurus with 12 samples.

Results

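Genes of retinoic acid metabolism and of the entry into meiosis were followed by ribosome profiling in testes of yak and cattle–yak. The genes were taken by their symbol from a list of 10, of which 8 had a row among the 20965 genes of the tables, 13662 of which carry a symbol. These were STRA6, CRABP1, RDH10, ALDH1A2, CYP26A1, CYP26B1, MEIOC and YTHDC2. No row carried the symbol ALDH1A1 or STRA8. Among the rows without a symbol, 1 is described as stimulated by retinoic acid 8 and 2 as retinal dehydrogenase 1, and these 3 rows are given by their identifiers, apart from the 8 genes.

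Ribo-seq sequences the stretches of mRNA that ribosomes cover, called ribosome footprints (RFs). Testes of 12 males were profiled, 3 in each group: yaks of 6 months (juvenile by the labels), yaks of 18 months (puberty), yaks of 4 years (sexual maturity) and cattle–yaks of 4 years (sexual maturity). No group was treated. The cattle–yak is the hybrid of a cattle bull (Jersey, by the study's methods) and a yak cow (Gannan yak). All animals came from a single cooperative by the labels. The labels give castration for all testes, whereas the methods give euthanasia for the yaks of 4 years and castration for the cattle–yaks, so hybrid origin and tissue collection cannot be told apart. Reads of both yak and hybrid were aligned to the yak genome, and the part of this in the differences below was not tested.

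Retinol reaches the testis in blood, is taken into cells through the receptor STRA6 and is oxidised first to retinal, by RDH10 among other enzymes, and then to retinoic acid by the retinal dehydrogenases ALDH1A1 and ALDH1A2. CRABP1 and CRABP2 bind retinoic acid inside cells, and the cytochromes CYP26A1 and CYP26B1 degrade it. In spermatogonia retinoic acid induces STRA8, which starts the meiotic programme, and MEIOC acts with the RNA helicase YTHDC2 to let cells leave the mitotic programme and go through meiotic prophase.

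Counts on genes summed to 25816963 to 37167651 in the libraries of 6 months, 21309151 to 24542362 at 18 months, 16304058 to 17862516 at 4 years and 38437889 to 52616039 in cattle–yak. Of the 3 libraries of 18 months, replicate 2 stood apart: its correlation with the other 2 (Pearson, log2 CPM, counts scaled to the library total, across genes) was 0.816 and 0.847, against 0.963 between those 2. Its sum over 7 spermatocyte markers was 1049.5 FPKM, against 14.5 and 72.0. Its sum over 4 markers of elongating spermatids was 6717 FPKM, against 1.84 and 13.2. FPKM is the number of footprints scaled by the length of the gene and by the total of the library. TNP1, which packs the DNA of elongating spermatids, was listed at 0 in 18-month replicate 1 and at 6016 FPKM in replicate 2. In yaks of 4 years the sums were 1455 to 1879 FPKM for spermatocytes and 8274 to 11324 for elongating spermatids, and in cattle–yaks 135 to 280.2 and 1.13 to 26.5. Comparisons with 18 months are therefore given with and without replicate 2. In footprints of these bulk samples, fewer cells of a type, less RNA per cell and fewer ribosomes per RNA cannot be told apart.

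Groups were compared in pairs with edgeR's quasi-likelihood test on the counts. A gene was called where its adjusted p was below 0.05 and its log2 fold change at least 1 in either direction. All 6 pairs reuse the same 12 libraries, so the comparisons are not independent of each other. In a single fit over the 4 groups, all 8 genes differed at an adjusted p below 0.05, as did 78.2% of all 16906 genes tested there. The adjusted p ranged from 3.67e-06 for RDH10 to 0.0193 for YTHDC2.

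RDH10, STRA6 and CYP26B1 separated the juvenile testis from the older ones in opposite directions. RDH10, the enzyme of the first oxidation step, was at 176, 156 and 165 FPKM at 6 months and at 32.3, 31.3 and 31.2 FPKM at 18 months. The yaks of 4 years had 23.2, 29.4 and 25.1 FPKM and the cattle–yaks 34.8, 34.2 and 30.3. Every juvenile library was above every other library, and the 18-month libraries lay closer together (SD 0.58 FPKM, n = 3) than those of any other group, replicate 2 included. RDH10 fell by 2.75 ± 0.21 (log2, SE) from 6 to 18 months (adjusted p = 0.0188) and was the only 1 of the 7 genes tested that was called there, where 0.0672% of 14874 genes were called. The call was lost, with fold changes of -2.84 to -2.61, when any 1 of the 3 juvenile libraries or 18-month replicate 3 was left out. Between 6 months and 4 years it was -3.26 ± 0.17 (adjusted p = 5.2e-07), and this call remained without any 1 of the 6 libraries, with a range of -3.35 to -3.14.

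STRA6, the retinol uptake receptor, was at 173, 84.1 and 90.3 FPKM at 6 months. The 18-month values were 53.7, 11 and 8.75 FPKM. Those of 4 years were 12.9, 18.9 and 4.98 FPKM, and those of cattle–yak 2.22, 7.33 and 5.74. The order of the group means ran down from 6 months over 18 months and 4 years to cattle–yak, but only the juvenile group was separate from its neighbour, since each older group overlapped the next. STRA6 fell by 3.75 ± 0.54 from 6 months to 4 years (adjusted p = 0.000222) and by 2.55 ± 0.81 from 6 to 18 months without passing the test (adjusted p = 0.124).

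CYP26B1, a retinoic acid hydroxylase known from the cells around germ cells, ran the other way. It was at 24.8, 20.8 and 22.7 FPKM at 6 months and at 113, 68.9 and 97.5 FPKM at 18 months. The values were 45.4, 60.9 and 46.8 FPKM at 4 years and 97.4, 165 and 73.9 in cattle–yak. The juvenile libraries were the lowest, yaks of 4 years came next, and the 18-month and cattle–yak libraries overlapped above both. From 6 to 18 months the change was 1.69 ± 0.29 (adjusted p = 0.0553), which missed the test. It was called without 18-month replicate 2, at 1.90 ± 0.24 (adjusted p = 0.0422, with 0.504% of genes called). Over the whole span to 4 years it was 0.62 ± 0.17 (adjusted p = 0.0109), below the fold threshold with TMM scaling and above it, at 1.2, with scaling by library size alone.

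**Figure D1:**
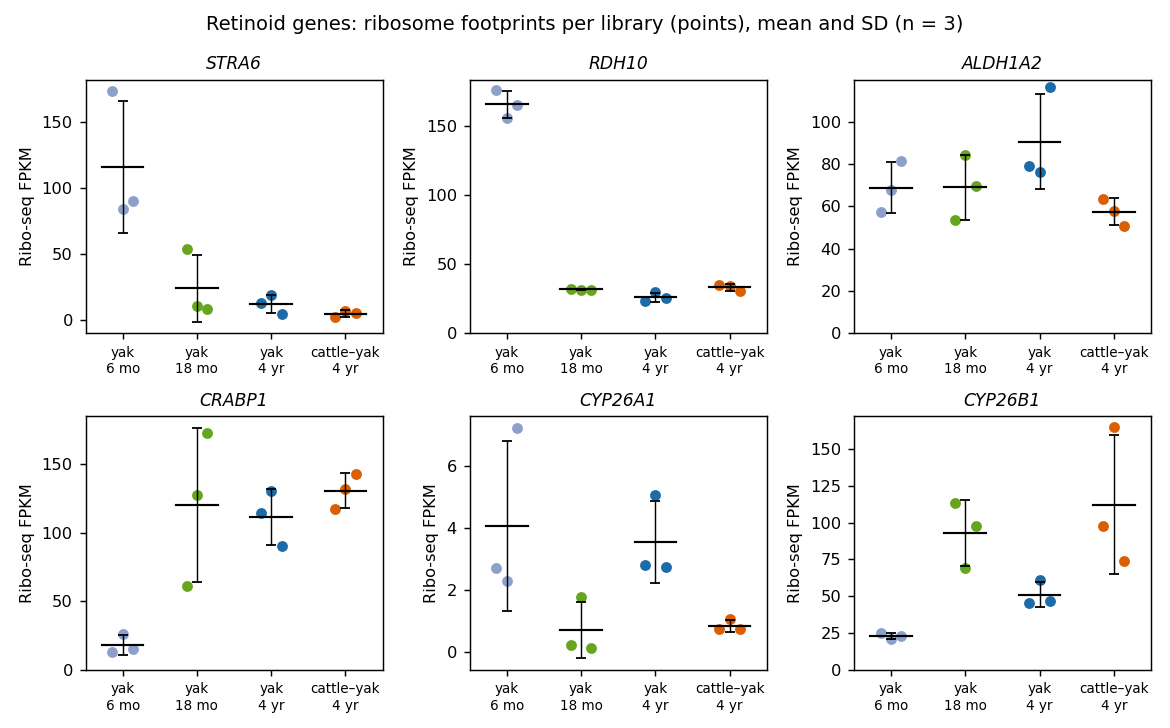
Ribo-seq FPKM (vertical axes, linear) of the 6 retinoid genes in each of the 12 libraries, with points for libraries, horizontal lines for group means and bars for the SD (n = 3). STRA6 and RDH10 were highest at 6 months, CRABP1 and CYP26B1 lowest, and CYP26A1 was at 0.72 to 1.04 FPKM in the cattle–yak libraries against 2.74 to 5.07 in yaks of 4 years.

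CRABP1, which binds retinoic acid in the cytoplasm, was at 12.6, 26.2 and 14.9 FPKM at 6 months. It was at 60.98, 128 and 172 FPKM at 18 months. At 4 years it was at 114, 130.04 and 90.0 FPKM, and in cattle–yak at 117, 132 and 143. The juvenile libraries were separate below all others, and the 3 older groups overlapped. CRABP1 rose by 2.08 ± 0.26 from 6 months to 4 years (adjusted p = 0.000103). From 6 to 18 months its change of 2.38 ± 0.40 missed the test (adjusted p = 0.0533).

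ALDH1A2, which makes retinoic acid from retinal, varied least. It was at 57.2, 67.5 and 81.3 FPKM at 6 months and at 53.4, 84.1 and 69.4 at 18 months. Yaks of 4 years had 79.2, 76.1 and 117 FPKM and cattle–yaks 63.6, 57.6 and 50.8. Only the cattle–yaks and the yaks of 4 years were separate. Between 6 months and 4 years its direction rested on the scaling: -0.16 ± 0.19 with TMM (adjusted p = 0.471) and 0.41 with library size alone, where the median of all genes was 0.57 higher.

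CYP26A1, the other retinoic acid hydroxylase measured, was the lowest of the retinoid genes by FPKM. It was at 2.70, 2.28 and 7.23 FPKM at 6 months and at 0.22, 1.76 and 0.13 at 18 months, where 5 to 57 counts lay behind the values. Values of 2.80, 5.07 and 2.74 FPKM were found at 4 years and of 0.72, 1.04 and 0.73 in cattle–yak. The 18-month and cattle–yak libraries overlapped and lay below all libraries of 6 months and of 4 years. CYP26A1 changed by -2.92 ± 0.98 from 6 to 18 months (adjusted p = 0.134) and by 2.23 ± 0.94 from 18 months to 4 years (adjusted p = 0.148), and neither passed the test. Without 18-month replicate 2, in which it was highest of its group, the second change was 4.05 ± 0.57 and was called (adjusted p = 0.00102).

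The genes of meiotic entry were low at 6 months. MEIOC had 0 counts in each of the 3 juvenile libraries, which allows 3 counts per library, or 0.0807 to 0.116 CPM (counting error only). At 18 months its counts were 8, 1393 and 55, or 0.17, 32.3 and 1.11 FPKM. The yaks of 4 years had 43.8, 40.8 and 56.2 FPKM and the cattle–yaks 8.16, 4.06 and 5.90. The level in 18-month replicate 2 was nearest to those of 4 years, while the other 2 were below every cattle–yak library. Taking 3 counts in each juvenile library, MEIOC was at least 967-fold higher at 4 years and at least 124-fold higher in cattle–yak than at 6 months, on the mean CPM.

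YTHDC2 was at 3.2, 3.28 and 4.42 FPKM at 6 months and at 2.82, 15.8 and 4.25 at 18 months. At 4 years it was at 18.8, 20.8 and 19.9 FPKM, and in cattle–yak at 14.7, 8.32 and 9.22. The libraries of 4 years were separate above all others, and the cattle–yaks lay between them and the juveniles, with 18-month replicate 2 again among the high values. YTHDC2 rose by 1.88 ± 0.16 from 6 months to 4 years (adjusted p = 7.76e-06). Unlike MEIOC, it had 357 to 587 counts in every juvenile library.

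The row described as stimulated by retinoic acid 8 (ENSBGRG00000003725) was at 0.32, 0.70 and 0.68 FPKM at 6 months and at 0.41, 5.64 and 1.07 at 18 months. At 4 years it was at 5.91, 6.83 and 9.16 FPKM, and in cattle–yak at 15.6, 10.8 and 14.7. Each cattle–yak library was thus above each yak library, whereas MEIOC and YTHDC2 were lower in cattle–yak than in yaks of 4 years. From 6 months to 4 years it rose by 3.11 ± 0.35 (adjusted p = 4.6e-05).

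**Figure D2:**
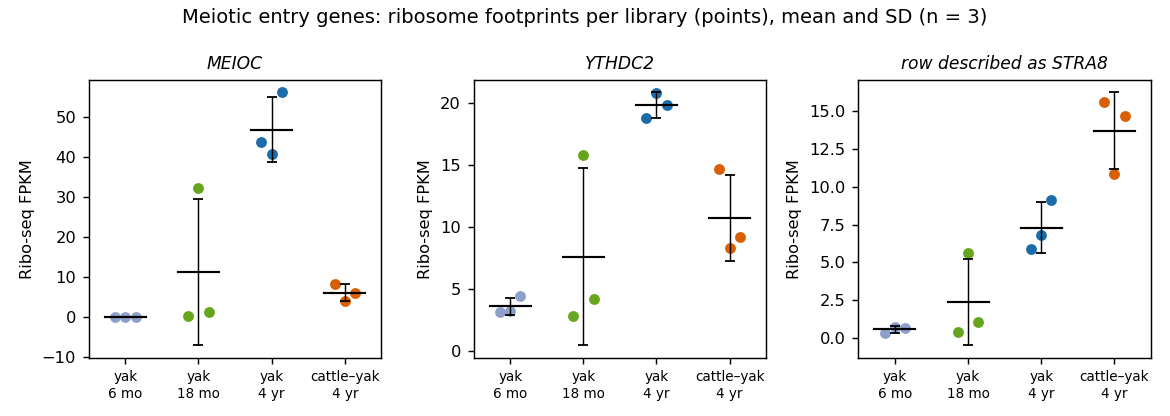
Ribo-seq FPKM (vertical axes, linear) of MEIOC, YTHDC2 and the row described as stimulated by retinoic acid 8 (STRA8) in each of the 12 libraries, with points for libraries, horizontal lines for group means and bars for the SD (n = 3). In cattle–yak, MEIOC (4.06 to 8.16 FPKM) and YTHDC2 (8.32 to 14.7) were below the yaks of 4 years, and the row described as STRA8 (10.8 to 15.6) was above them.

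With age in yak, 5 of the 8 genes were called between 6 months and 4 years, where 55.7% of 16133 genes were called. CRABP1, MEIOC and YTHDC2 were higher (31.0% of all genes were) and RDH10 and STRA6 lower (24.7%), and the median log2 fold change of the 8 genes was 0.23, against 0.08 for all genes. This count was 5 without any 1 of the 6 libraries. Between 18 months and 4 years none of the 8 was called by edgeR, where 0.0371% of 16175 genes were called, and 2 of the 8 and 5731 of all genes had an unadjusted p below 0.05. DESeq2 called CYP26A1 and YTHDC2 there, with 27.1% of all genes. Without 18-month replicate 2, 4 of the 8 were called with 44.6% of all genes: CYP26A1 at 4.05, MEIOC at 6.03 ± 0.62 and YTHDC2 at 2.28 ± 0.19 were higher, as were 26.1% of all genes, and CYP26B1, at -1.24 ± 0.21, was lower at 4 years, as were 18.5%. From 6 to 18 months, 5 of the 7 genes tested had FPKM ranges that did not overlap, as had 37.8% of all genes, and DESeq2 called these 5 (CRABP1, CYP26B1, CYP26A1, RDH10 and STRA6) with 12.6% of all genes. MEIOC did not pass the filter on low counts in that pair.

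In cattle–yak, 4 of the 8 genes were called against yaks of 4 years, with 44.0% of 16498 genes called: 1 higher (17.1% of all genes) and 3 lower (27.0%). The degrading enzymes moved apart, CYP26B1 being higher and CYP26A1 lower in the hybrid. MEIOC and STRA6 were lower too. Over the 8 genes the median log2 fold change was -0.77, against -0.0022 for all genes. Ranges in FPKM did not overlap for 6 of the 8, as for 71.1% of all genes.

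CYP26A1 fell by 2.08 ± 0.35 (adjusted p = 0.000917), and each of its 3 cattle–yak values was below each value of yaks of 4 years. CYP26B1 rose by 1.11 ± 0.28 (adjusted p = 0.00781). Cattle–yak replicate 2, at 165 FPKM, carried part of this: without it the change was 0.74, below the fold threshold, with an adjusted p of 0.0127. MEIOC had the largest change of the 8, -2.94 ± 0.27 (adjusted p = 3.27e-05), and without any 1 library it ranged from -3.24 to -2.71 and was called each time. When all 12 libraries shared 1 fit, the estimate was -2.93 and the adjusted p 0.104. STRA6 was at -1.55 ± 0.56 (adjusted p = 0.0383), but its ranges overlapped and the call was lost without 4-year replicate 1 or 2 or without cattle–yak replicate 1 or 3. Without 4-year replicate 2 it was -1.04 (adjusted p = 0.173), and blocking on replicate number gave -1.50 (adjusted p = 0.0507).

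The other 4 genes changed by less than the fold threshold. YTHDC2 was at -0.87 ± 0.22 (adjusted p = 0.00831) and passed the threshold without cattle–yak replicate 1, the highest of its group, at -1.18. ALDH1A2 was at -0.67 ± 0.18 (adjusted p = 0.0112) and RDH10 at 0.37 ± 0.14 (adjusted p = 0.0474), and neither range overlapped that of yaks of 4 years. CRABP1 was at 0.24 ± 0.16 (adjusted p = 0.217) with overlapping ranges. The row described as STRA8 (ENSBGRG00000003725) was at 0.93 ± 0.22 (adjusted p = 0.00598), and leaving out cattle–yak replicate 2 (1.08) or 4-year replicate 3 (1.17) took it past the fold threshold.

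**Figure D3:**
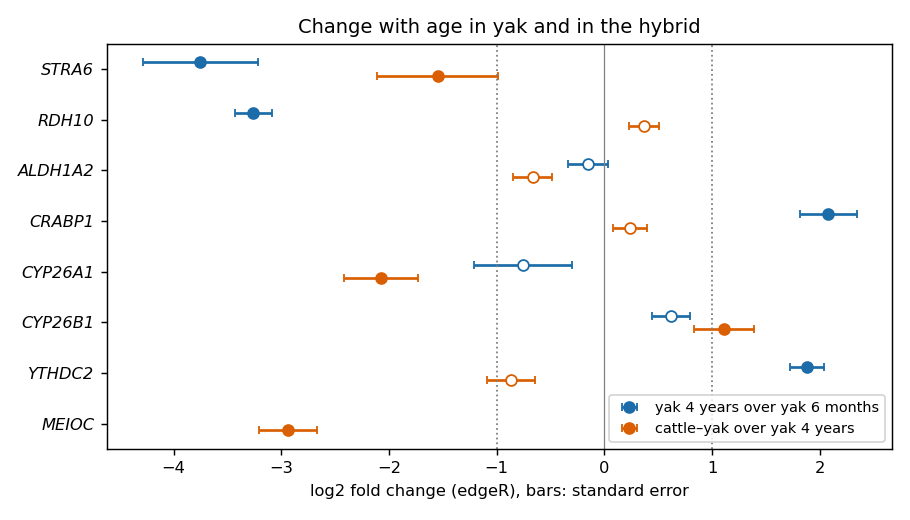
Log2 fold changes (horizontal axis) with standard errors from edgeR for the 8 genes, blue for yaks of 4 years over 6 months and orange for cattle–yak over yaks of 4 years, filled where called and open where not, with dotted lines at -1 and 1. MEIOC has no blue point because it had 0 counts at 6 months, and the comparisons share the libraries of 4 years. RDH10 was at -3.26 with age and 0.37 in the hybrid, and CYP26A1 at -0.76 and -2.08.

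The rows described as retinal dehydrogenase 1, which makes retinoic acid as ALDH1A2 does, were each above ALDH1A2 in every library by FPKM. Because both carry the same description, reads may be divided between them, and their single values are uncertain. ENSBGRG00000011174 was at 1597, 3101 and 2746 FPKM at 6 months, at 2705, 2335 and 1497 at 18 months, at 1239.8, 959 and 1782 at 4 years and at 2602, 2157 and 3104 in cattle–yak. ENSBGRG00000022195 was at 204, 428 and 407, then 471, 298 and 224, then 240.3, 171 and 209, and at 707, 761 and 1108 FPKM in cattle–yak. In both rows every cattle–yak library was above every library of 4 years, whereas ALDH1A2 was below. Cattle–yak over yaks of 4 years was 0.99 ± 0.24 for the first row (adjusted p = 0.00614, under the fold threshold) and 2.15 ± 0.22 for the second (adjusted p = 6.36e-05). From 6 months to 4 years both were lower, at -1.45 ± 0.31 (adjusted p = 0.00229) and -1.38 ± 0.27 (adjusted p = 0.00149), and with library size alone at -0.90 and -0.84, under the threshold.

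The cattle–yaks were of 4 years, so against the younger yaks age and hybrid origin differ together and cannot be told apart. Against 6 months 7 of the 8 genes were called, where 37.8% of 15571 genes were called. CRABP1, MEIOC, YTHDC2, RDH10 and STRA6 were called in the same direction between yaks of 6 months and 4 years, and CYP26B1 and CYP26A1 were not called there. CRABP1 (2.34 ± 0.24), CYP26B1 (1.75 ± 0.29), MEIOC and YTHDC2 (1.03 ± 0.23) were higher, as were 18.1% of all genes. STRA6 (-5.27 ± 0.55), RDH10 (-2.87 ± 0.16) and CYP26A1 (-2.81 ± 0.47) were lower, as were 19.7%. YTHDC2 was close to the fold threshold and fell under it without cattle–yak replicate 1, at 0.74. ALDH1A2 was at -0.80 ± 0.14 (adjusted p = 0.00172), not past the fold threshold. Against 18 months none of the 8 was called by edgeR, where 5.80% of 15702 genes were, and 2 of the 8 and 4752 of all genes had an unadjusted p below 0.05, while DESeq2 called STRA6, with 15.3% of all genes. Without 18-month replicate 2, MEIOC was 3.09 ± 0.70 and YTHDC2 1.40 ± 0.30 higher and STRA6 -3.09 ± 0.83 lower in the hybrid, with 15.3% of all genes called, 7.22% higher and 8.04% lower. With that library MEIOC was at -0.87 ± 1.48, so its direction rested on it. For the genes not called, this does not show that the hybrid is like yaks of 18 months.

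Ratios of levels within a library do not rest on the scaling between libraries. They were chosen after the values were seen and are given as a description. ALDH1A2 over CYP26B1 sets a single enzyme of synthesis over a single one of degradation. It was 2.31 to 3.59 at 6 months and 0.47 to 1.22 at 18 months. At 4 years it was 1.25 to 2.49, and in cattle–yak 0.35 to 0.69. The hybrid libraries were all below those of 4 years. This ratio leaves out the rows described as retinal dehydrogenase 1. Summed, these were at 14.8 to 18.7 times ALDH1A2 at 4 years and at 50.7 to 82.9 times in cattle–yak. ALDH1A2 over CYP26B1 therefore does not describe synthesis over degradation as a whole. CYP26A1 over CYP26B1 was 0.0586 to 0.0833 at 4 years and 0.0063 to 0.00987 in cattle–yak. It was 0.109 to 0.319 at 6 months and 0.0013 to 0.0255 at 18 months, so the 18-month and cattle–yak ranges overlapped.

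The meiotic genes also shifted against each other. MEIOC over YTHDC2 was 2.33, 1.96 and 2.83 at 4 years, 2.05 in 18-month replicate 2 and 0.56, 0.49 and 0.64 in cattle–yak. MEIOC over the row described as STRA8 was 7.40, 5.97 and 6.14 at 4 years and 5.73 in 18-month replicate 2, against 0.52, 0.37 and 0.40 in cattle–yak. In 18-month replicates 1 and 3 it was 0.41 and 1.04. Low values of this ratio were thus found both in the hybrid and in the yak libraries of 18 months with few spermatocyte markers.

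The sum of 7 spermatocyte markers was lower in cattle–yak than at 4 years, as MEIOC was, but its genes did not all move together. Mean FPKM of SYCP1 was 27.1 at 4 years and 19.3 in cattle–yak, and that of MEIOB 35.65 and 17.4, whereas SYCP3 was higher. At 4 years the sum was 1455 to 1879 FPKM, so it rested mostly on the other genes of the list. MEIOC was therefore also set against early meiotic prophase genes. These build the chromosome axis and break and repair DNA in cells that have entered meiosis. Of 15 such genes with a row, HORMAD1 made up 21.6% to 28.4% of their summed FPKM at 4 years and 87.0% to 93.9% at 6 months, and it was therefore left out and the juvenile libraries were not used. Per 100 FPKM of the other 14 genes, MEIOC was at 6.39, 6.63 and 7.94 at 4 years and at 1.67, 1.78 and 1.85 in cattle–yak. YTHDC2 was at 2.74, 3.38 and 2.80 at 4 years and at 3.0, 3.65 and 2.89 in cattle–yak, so these ranges overlapped. The row described as STRA8 was at 0.86, 1.11 and 1.29 at 4 years and at 3.2, 4.76 and 4.60 in cattle–yak. Relative to the sum of these 14 genes, the hybrid was thus lower in MEIOC, overlapping in YTHDC2 and higher in the row described as STRA8. The genes in the sum did not move together, so these ratios rest on which genes it holds. Mean FPKM of SYCP3 was 69.9 at 4 years and 112.7 in cattle–yak, and that of TEX15 39.2 and 5.55. The sum without SYCP3 was not computed, and a fall of MEIOC beyond that of each single gene is not shown. Summed spermatogonial markers were higher in the hybrid too, at 989 to 1160 FPKM against 471 to 729 at 4 years. The row described as STRA8 was not set against them, so a rise of this row beyond that of spermatogonial markers is not shown.

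**Figure D4:**
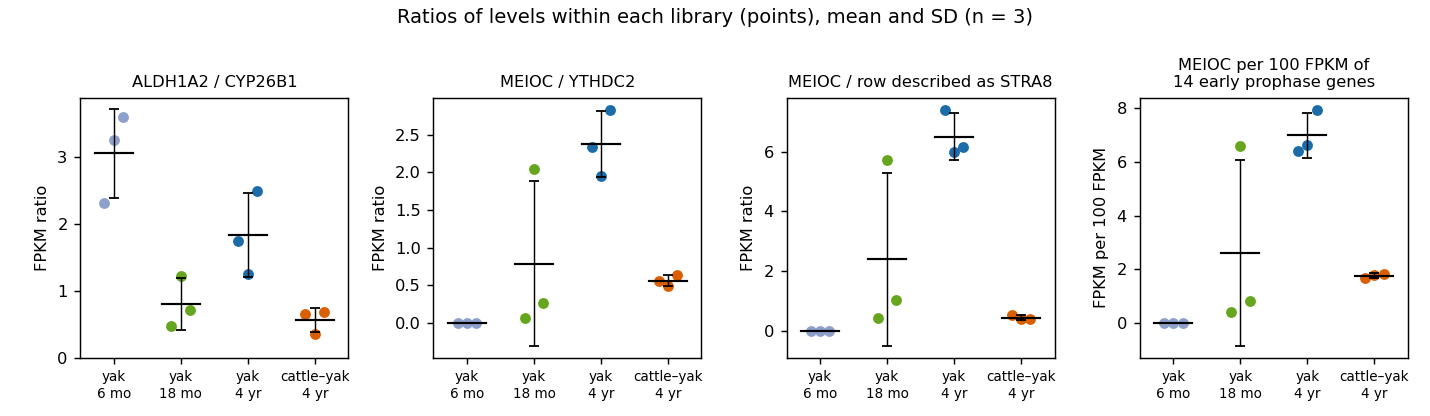
Ratios of FPKM within each of the 12 libraries (vertical axes, linear), with points for libraries, horizontal lines for group means and bars for the SD (n = 3), and MEIOC per 100 FPKM of 14 early prophase genes in the right panel. The cattle–yak libraries lie below those of 4 years in all 4 panels, and 18-month replicate 2, the highest of its group, lies within or just beside the range of 4 years in the 3 MEIOC panels.

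Markers of the other testis cells moved with these differences, and their part was not tested. The summed FPKM of 6 Sertoli cell markers was 6136 to 7582 at 6 months, 1989 to 6230 at 18 months, 612 to 843 at 4 years and 1137 to 1396 in cattle–yak. INHA alone was at 5825 to 7288 FPKM at 6 months. Fibroblast and stroma markers (4 genes) were at 2098 to 2254 at 6 months, 293 to 705 at 18 months, 102 to 138 at 4 years and 306 to 506 in cattle–yak. Peritubular myoid markers (5 genes) were at 141 to 242, 408 to 1266, 211 to 219 and 780.3 to 1291 in the order 6 months, 18 months, 4 years and cattle–yak. CYP26B1 per 100 FPKM of these myoid markers was 20.7 to 28.8 at 4 years and 9.48 to 12.8 in cattle–yak, a difference in the direction opposite to that of CYP26B1 itself. Per 100 FPKM of Sertoli markers it was 7.22 to 7.65 and 5.46 to 11.8, which overlapped. STRA6 per 100 FPKM of Sertoli markers was 1.19 to 2.52 at 6 months and 0.30 to 0.86 at 18 months. At 4 years it was 0.81 to 2.24, which overlapped 6 months, and in cattle–yak 0.20 to 0.53, below 4 years. RDH10 per 100 FPKM of Sertoli markers was 2.18 to 2.56 at 6 months and 3.49 to 4.11 at 4 years, and 0.52 to 1.57 at 18 months, below both. In cattle–yak it was 2.24 to 3.06, below 4 years, a difference in the direction opposite to that of RDH10 itself. RDH10 was thus lower by less than the Sertoli sum from 6 months to 4 years, and by more than it from 6 to 18 months. INHA made up most of that sum at 6 months. The ratios to Sertoli markers at 6 months therefore rest mainly on INHA and not on the markers as a set. Spermatogonial markers (6 genes) were at 471 to 729 at 4 years and at 989 to 1160 in cattle–yak. Leydig cells could be followed by 2 of 8 markers, STAR and CYP11A1, at 58.8 to 188 in yaks of 4 years and 580.2 to 1041 in cattle–yak. Macrophage markers (4 genes) were lower in cattle–yak, at 45.4 to 56.3 against 222 to 256, and endothelial markers (5 genes) overlapped, at 9.64 to 12.1 against 11.7 to 13.95.

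Beyond the 8 genes, 5 lists of pathway genes were counted, 53 of whose 70 genes had a row. In cattle–yak over yaks of 4 years, where 17.1% of all genes tested were higher and 27.0% lower, with a median of -0.0022, 3 of 8 tested genes of retinol uptake, binding and storage were higher and none lower, with a median log2 fold change of 0.94. CRABP2, which delivers retinoic acid to its nuclear receptor, was at 3.65, 4.27 and 7.15 FPKM at 4 years and at 111, 253 and 148 in cattle–yak, a rise of 5.10 ± 0.38. The other 2 were LRP2 (2.73 ± 0.41), an endocytic receptor, and FABP5 (1.54 ± 0.17), a fatty acid binding protein that also binds retinoic acid. LRP2 was low, at 0.31 to 0.62 FPKM at 4 years and 1.57 to 4.13 in cattle–yak. Among other retinoid enzymes only ADH5 of 6 tested was higher (2.0 ± 0.13) and none was lower, with a median of 0.65. Of 9 receptors and cofactors, the receptors RXRA (1.46 ± 0.19) and RARG (1.11 ± 0.20) and the coactivator NCOA1 (1.26 ± 0.12) were higher and none was lower, with a median of 0.58.

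Regulators of meiotic initiation went both ways in cattle–yak, with 3 of 6 tested higher (17.1% of all genes) and 2 lower (27.0%) and a median of 0.80. MSX2 (3.61 ± 0.44), KITLG (1.78 ± 0.23), the ligand of the receptor KIT, and DMRT1 (1.37 ± 0.12), a transcription factor of Sertoli cells and spermatogonia, were higher. The fold of MSX2 rests on a low level at 4 years, 0.34 to 0.88 FPKM, against 4.40 to 7.83 in cattle–yak. At 18 months MSX2 was at 2.42 to 22.0 FPKM. The RNA-binding protein RBM46 (-1.32 ± 0.17) and the transcription factor DMRTB1 (-1.02 ± 0.18) were lower. Of 15 early prophase genes 7 were lower (27.0% of all genes) and 1 higher (17.1%), with a median of -1.01. TEX15 (-2.81 ± 0.23), the axis protein HORMAD2 (-2.13 ± 0.34) and the synaptonemal complex protein SYCE1 (-2.19 ± 0.19) were lower and MEI4 (1.42 ± 0.19), which takes part in DNA break formation, was higher. The lower TEX15 was at 44.1, 39.1 and 34.5 FPKM at 4 years and at 7.32, 4.24 and 5.10 in cattle–yak. SYCP3, at 0.70 ± 0.24 (adjusted p = 0.0303), was under the fold threshold.

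**Figure D5:**
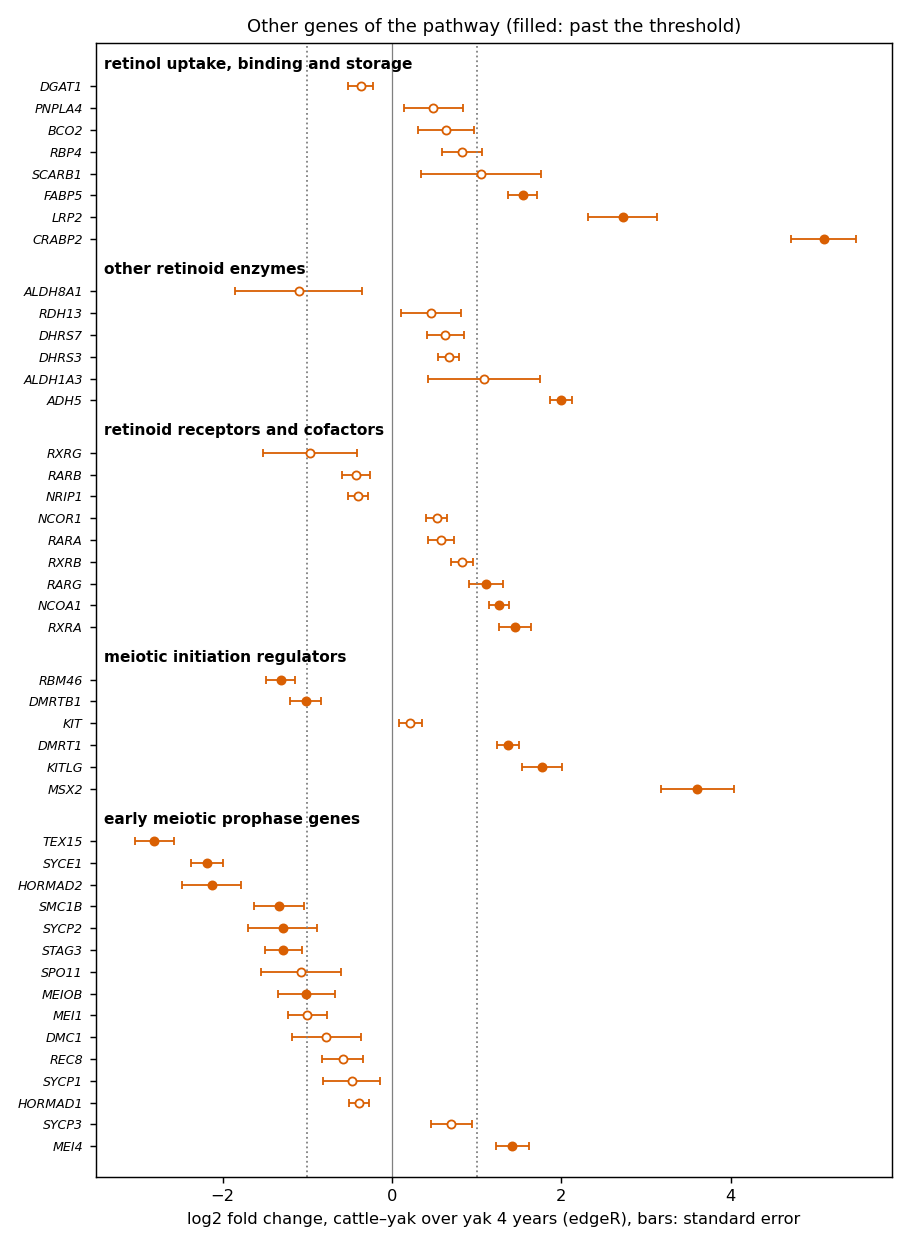
Log2 fold changes of cattle–yak over yaks of 4 years (horizontal axis) with standard errors from edgeR for each tested gene of the 5 pathway lists, filled where called and open where not, with dotted lines at -1 and 1. The receptors and cofactors hold 3 higher and 0 lower genes and the early prophase genes 1 higher and 7 lower, with CRABP2 at 5.10 and TEX15 at -2.81 the extremes.

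From 6 months to 4 years CRABP2 fell by 8.57 ± 0.30 on the log2 scale (adjusted p = 6.81e-08), whereas CRABP1 rose. It was at 1206, 1209.9 and 1419 FPKM at 6 months and at 1060.1, 682 and 843 at 18 months, and its log2 fold change from 18 months to 4 years was -7.65 ± 0.47 (adjusted p = 0.0332). It was the only list gene called in that pair, where no gene at all was called once any 1 library of 4 years or 18-month replicate 3 was left out. CRABP1 per 100 FPKM of CRABP2 was 1.04 to 2.16 at 6 months, 5.75 to 20.4 at 18 months, 1259 to 3128 at 4 years and 52.1 to 105 in cattle–yak. From 6 months to 4 years 14 of the 15 early prophase genes were higher, as were 31.0% of all genes, and none was lower (24.7% of all genes), with a median of 4.90 against 0.08 for all genes. In that pair 4 of 6 other retinoid enzymes were lower and none was higher, with a median of -1.61.

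The genes whose pattern over the 12 libraries was closest to each of the 8, by the root-mean-square (RMS) difference of centred log2 CPM, were taken from 7027 or 7028 candidates. For MEIOC they were DNAH2, a dynein heavy chain (0.95), TDRD5 (1.06) and PIWIL1 (1.29), both of the piRNA pathway of germ cells, where MEIOC itself varied by 4.01. For YTHDC2 they were KIF3A (0.22), a kinesin motor, RANGAP1 (0.23) and CYLD (0.24). For RDH10 they were LTBP1, LAMA4 and TGFBI (0.40 to 0.41), all of the extracellular matrix, and for STRA6 PDGFRL, CKAP4 and PCOLCE2 (0.62 to 0.75). CYP26B1 was nearest to MMP15, USP28 and RAB12 (0.34 to 0.38), CRABP1 to ZNF280C, TPP2 and BEND4 (0.28 to 0.30), ALDH1A2 to HAUS1, EMSY and ZNF652 (0.11 to 0.16) and CYP26A1 to CORIN, ITGA4 and FAT4 (0.89 to 1.01). ALDH1A2 itself varied by only 0.34, so many genes lie near it.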

How the data were processed

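Ribo-seq data of 12 testis libraries were used, 1 per animal and 3 per group. Per the methods, the authors ran fastp for trimming, Bowtie2 to discard rRNA and BLAST to discard other short noncoding RNA, kept reads of 20 to 40 bases, and used STAR on the yak genome (BosGru) and RSEM for quantification. Bowtie2 and RSEM also stand in the submitters' processing notes. The expected count of each gene was deposited by the authors as whole numbers without normalization. The deposited FPKM divides this count by gene length and library total, but for some genes not with the same length in every library. STRA6 was at 12.9 FPKM and 22.4 CPM in 4-year replicate 1 and at 2.22 FPKM and 2.98 CPM in cattle–yak replicate 1. The part of this in FPKM ranges and ratios was not tested. The 3 tables also hold the authors' group means, log2 fold changes, p-values and FDR, which were not used. Libraries that occur in several tables held identical values.

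Genes with low counts were removed with filterByExpr, libraries were scaled by TMM and pairs of groups were tested with edgeR 4.0.16 (quasi-likelihood, Benjamini-Hochberg over all tested genes, R 4.3.3), using the 6 libraries of the pair. The test was checked on simulated data. Python 3.11.15 (pandas 2.3.3, numpy 2.4.6, matplotlib 3.10.9) served for levels, ratios and plots. The standard error is the log2 fold change over the square root of F. For a gene at 0 counts in a group, folds are lower bounds that take 3 counts per library.

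Named were the 8 genes, up to 4 called genes of each pathway list with the largest change in the pairs 6 to 18 months, 18 months to 4 years and 4 years to cattle–yak, and the 3 nearest genes of each of the 8. The 3 rows without a symbol, DMRTB1, SYCP3, TNP1, the marker names and HORMAD1 fell outside this rule and were chosen after their values were seen. The 8 genes, the 5 pathway lists and the 10 marker lists were chosen with earlier results of these data known, and 1 gene of the pathway lists is not reported here and was left out of their counts and medians. The same comparisons were repeated with DESeq2 1.42.0, with RLE, upper quartile or library-size scaling, without the filter, without a minimum fold, with 1 fit of all 12 libraries, with limma 3.58.1 on log2(FPKM + 1) and log2(FPKM + 0.1), with replicate numbers as blocks, and leaving out single libraries. Since each animal gave 1 library, the spread includes that of library preparation. No sequences or positions are printed, as the tables used give none.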

Additional observations from a re-analysis of the deposited data

How the results depend on the processing

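Of 975 recomputed fold changes of the 8 genes and the 3 rows without a symbol, 860 kept their direction and their side of the threshold, 60 came to pass it, 25 no longer passed it and 30 changed direction. Between 6 and 18 months, where 1 of the 8 genes and 10 of all genes were called, DESeq2 called 5 and 1868, library-size scaling 3 and 153, and 1 fit of all 12 libraries 5 and 2655. There limma called 3 of the 8 at either pseudocount, with 170 (pseudocount 1) and 434 (0.1) of all genes, upper quartile scaling called 130 of all genes and no filter 3. Leaving out 1 library gave 0 to 5 of the 8 and 0 to 2593 of all genes. Between 18 months and 4 years, where 0 and 6 were called, DESeq2 called 2 and 4383, the fit of all 12 libraries 1 and 3486, limma 73 (pseudocount 1) and 52 (0.1) of all genes, and leaving out 1 library gave 0 to 4 and 0 to 7310, the highest without 18-month replicate 2. For cattle–yak over 18 months, with 0 and 910, DESeq2 called 1 and 2401, the fit of all 12 libraries 1 and 2613, no filter 599 of all genes, and leaving out 1 library gave 0 to 3 and 0 to 2464. For cattle–yak over 4 years, with 4 of the 8, the fit of all 12 libraries called 2 and no minimum fold 7. For cattle–yak over 6 months no minimum fold called 8982 of all genes against 5890. The cause of these shifts was not tested.

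Of the fold changes that changed direction, none was called as reported. From 6 to 18 months ALDH1A2 was 0.045 with library-size scaling and YTHDC2 ran from -0.36 to 0.98 with 1 library left out. From 18 months to 4 years, leaving out 1 library gave -1.63 to 0.29 for STRA6 and -0.52 to 0.076 for CRABP1. From 6 months to 4 years ALDH1A2 was 0.41 with library-size scaling and 0.38 and 0.39 with limma (pseudocounts 1 and 0.1). For cattle–yak over 18 months, leaving out 1 library gave -0.26 to 1.98 for CYP26A1, -0.30 to 0.38 for CYP26B1, -0.17 to 0.058 for RDH10, -0.23 to 0.37 for CRABP1, -1.43 to 3.09 for MEIOC and -0.12 to 0.44 for ENSBGRG00000011174. In that pair upper quartile scaling gave -0.012 for CYP26B1 and -0.076 for CRABP1, RDH10 was 0.063 with library-size scaling and 0.064 and 0.065 with limma, and MEIOC was 0.65 and 1.43 with limma. For cattle–yak over 6 months ENSBGRG00000011174 was 0.079 with library-size scaling and 0.12 with limma at either pseudocount. Library-size scaling shifted the median of all genes by 0.57 between 6 months and 4 years, 0.54 between 6 months and cattle–yak, 0.37 between 6 and 18 months, 0.18 between 18 months and 4 years and 0.12 between 18 months and cattle–yak, and by -0.01 between 4 years and cattle–yak.

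The labels number the libraries 1 to 3 in each group, but same-numbered libraries come from different animals and deviated from their group means with correlations of -0.342 to 0.123, so the numbers were not taken as pairs. With the replicate number as a block, 4 of the 8 genes and 538 of all genes were called from 6 to 18 months, 0 of all genes from 18 months to 4 years and 1 of all genes for cattle–yak over 18 months, and MEIOC was 1.84 in the last pair. Low counts limit CYP26A1 at 18 months (5 to 57 counts) and MEIOC in 18-month replicates 1 and 3 (8 and 55 counts).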
